A study of Mus musculus with 9 samples.

Results

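The mean of the Tyk2-/- and Tyk2K923E arrays of each experiment was set against the wild-type (WT) array of the same experiment, to ask which transcripts changed both when the kinase was missing and when it was present but inactive. The comparison used all 9 arrays of the series, as 3 pairs: 3 WT, 3 Tyk2-/- and 3 Tyk2K923E arrays, 1 of each per experiment. The groups were splenic natural killer (NK) cells of WT mice, of mice deficient in Tyk2 (Tyk2-/-) and of mice with a kinase-inactive form of it (Tyk2K923E), all female and on the C57BL/6N background. Per the labels, cells of 3 to 4 mice per genotype were pooled for each experiment, enriched on DX5 magnetic beads and kept in culture for 7 days with human IL-2 (recombinant, 5000 U/ml), with splits on days 4 and 6. Each array is therefore an expanded pool and not an animal, all groups shared the IL-2, and the labels name no added interferon. The age of the mice and the construction of the Tyk2-/- allele were not given in the sources used here.

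TYK2 is a Janus kinase bound to the cytokine receptors of type I interferons, of IL-12 and IL-23, and of the IL-10 family. At the type I interferon receptor it works with JAK1, and the signal reaches a complex that holds IRF9 and binds interferon-stimulated response elements (ISREs) in the promoters of antiviral genes. In NK cells the IL-12 receptor signals through TYK2 and JAK2 to STAT4. A protein without kinase activity can still hold a receptor at the membrane, so an inactive kinase differs from an absent one.

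The promoters of genes that fell in the mutants were searched for the letters that this pathway is known to bind. The ISRE core was taken as GAAA, any 2 bases and GAAA, and the GAS core, which STAT dimers bind, as TTC, any 3 bases and GAA, each on both strands. Sequences came from the RefSeq promoter table (mouse build GRCm38.p6, 250 bases before to 50 after each gene's start), which held 13 of the 20 genes that passed the test below. The ISRE core stood in 2 of the 9 lower genes of the table (22.2%), in 0 of the 4 higher genes, in 359 of the 9880 tested genes of the table (3.63%) and in 1131 of all 32851 windows of this length (3.44%). With so few genes these counts are a description, and Ifi214 and Trim30d were tested only because their WT arrays passed the filter on low values. It stood in 15 of the 38 tested type I interferon-stimulated genes that the table held (39.5%). With only the 250 bases before the start, these shares were 22.2%, 2.98% of windows and 28.9%. The GAS core stood in 1 of the 9 lower genes, Cd160, and in 8.3% of windows. The 2 lower genes with an ISRE core are shown here as examples of the letters. Both lie on the minus strand, and the 120 bases before the start are printed 5′ to 3′ with the core in capitals, which in Trim30d is the reverse complement form. A match describes letters in the window and is not evidence of binding.
Ifi214, chr1:173535958-173536077: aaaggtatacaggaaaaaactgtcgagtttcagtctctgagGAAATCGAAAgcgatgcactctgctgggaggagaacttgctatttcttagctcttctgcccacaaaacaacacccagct
Trim30d, chr7:104507850-104507969: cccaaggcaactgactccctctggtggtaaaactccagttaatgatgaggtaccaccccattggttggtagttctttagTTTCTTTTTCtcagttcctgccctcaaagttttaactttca

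The values are log2 intensities after robust multi-array averaging (RMA), so a difference of 1 is a change of 2-fold. A gene was tested if its brightest probe set was at or above the array median on 3 or more of the 9 arrays, which left 12579 genes, and passed at a Benjamini-Hochberg adjusted p under 0.05 in limma with the experiment as a block. Array medians lay between 5.42 and 5.48. Experiment 1 stood apart from the others: the first principal component, with 61.0% of the variance, separated its 3 arrays from the other 6. The probe set of Tyk2 read 9.55, 8.63 and 8.85 on the Tyk2-/- arrays, 8.62 ± 0.06 (SD, n = 3) in WT and 8.53 ± 0.10 in Tyk2K923E. Its pooled difference was 0.15 (SE 0.13, limma adjusted p = 0.773), so the signal did not fall with the label. Which exons that probe set covers and which were deleted was not given in the sources used here, so it cannot check the labels.

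Relative to WT, 20 of the 12579 genes changed in the pooled mutants (0.159%). Of these, 16 fell (0.127%) and 4 rose (0.0318%). The genes that fell were antiviral and interferon pathway genes (Ifi27, Rtp4, Usp18, Ifi214, Trim30d, Mx1, Lgals3bp, Slfn2 and Irf9), the inflammatory caspase gene Casp4, the chemokine gene Ccl5, the NK cell surface genes Itga1, Itga2, Cd160 and Klra14-ps, and Hid1. The rises were Wdfy4, Ckap4, Cfap300 and Pla2g4a, of which Wdfy4 and Ckap4 rose mainly through Tyk2-/-. The largest fall was Casp4, at 3.72-fold, and the largest rise was Wdfy4, at 2.31-fold. In a bulk culture, fewer cells of a type and less RNA per cell cannot be told apart. Without adjustment 1195 genes (9.5%) had a p under 0.05, against 629 at a uniform p, and the split was even, with 610 lower (4.85%) and 585 higher (4.65%). The median difference of all genes was 0.0043.

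The number of calls rested on few arrays. Without experiment 1, 5 genes fell and 2 rose; without experiment 2, 2 and 2; without experiment 3, 1 and 0. It was 3 in all without WT replicate 2, without WT replicate 3 or without Tyk2K923E replicate 3, without the experiment block, and without the filter on low values. Leaving out any other single array gave 7 to 12 calls. Ifi27 passed under all 22 alternative settings, and Wdfy4 and Ckap4 under all but the one without experiment 3; the other 17 genes lost their call under several. None of the 20 differences changed by more than 1.5 times under any of the settings.

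**Figure D1:**
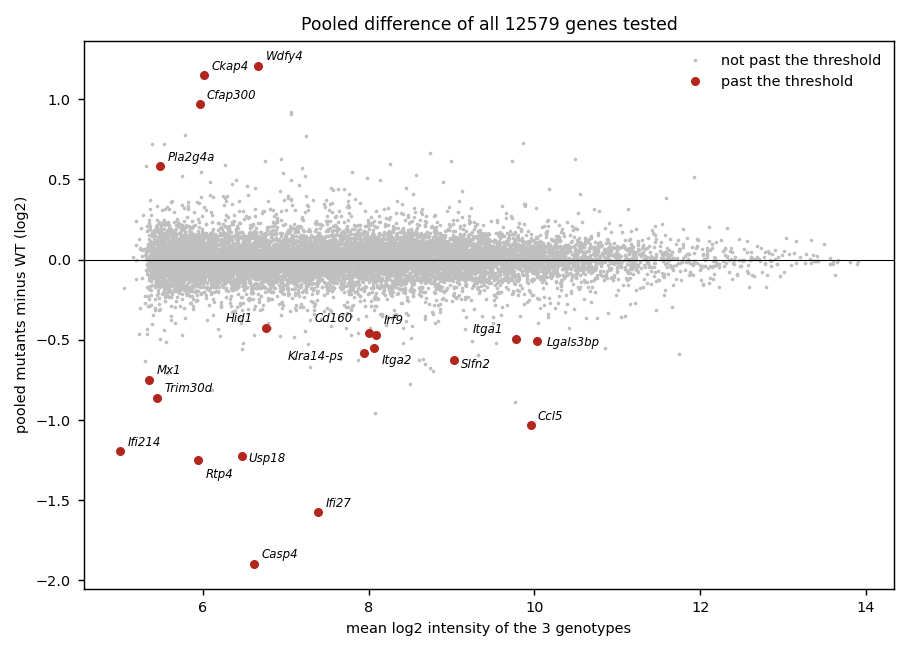
Each point is 1 of 12579 genes: the x axis is the mean log2 intensity over the 3 genotypes and the y axis the pooled log2 difference, mutants minus WT. The 20 genes past the threshold are red and named, with 16 below 0 and 4 above.

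Among the 20 genes, 18 had all 6 differences between a mutant array and the WT array of its experiment in the direction of the call. Wdfy4 and Ckap4 had 5 of 6. On 16 of them the mutant and WT arrays did not overlap, 14 below WT and 2 above. Over all genes tested, the mutants lay wholly below WT in 1.1% and wholly above in 0.859%. Calls select for such genes, so these counts describe the 20 and do not test them.

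Ifi27, a mitochondrial protein gene strongly induced by type I interferon, showed the smallest p of the comparison. It read 8.55, 8.58 and 8.20 in WT, 7.22, 7.00 and 7.06 in Tyk2-/-, and 6.80, 6.66 and 6.45 in Tyk2K923E, in the order of experiments 1 to 3. All mutant arrays were below all WT arrays, and in each experiment the Tyk2K923E array was the lower of the mutants. Its pooled difference was -1.57 (SE 0.07, limma adjusted p = 2.60e-04), 2.98-fold lower, and within the experiments it was -1.54, -1.74 and -1.44.

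The regulators of the pathway were led by Usp18 and Irf9. Usp18 encodes the protease that removes ISG15 from proteins and shuts the type I interferon receptor off. It read 6.67, 7.65 and 7.54 in WT, 5.91, 6.23 and 5.94 in Tyk2-/-, and 6.17, 6.07 and 6.03 in Tyk2K923E. The mutant arrays were close together, whereas the WT array of experiment 1 was well below the other WT arrays. The pooled difference of Usp18 was -1.23 (SE 0.17, limma adjusted p = 0.0499), at the edge of the threshold. Irf9, which encodes a DNA-binding factor of the interferon response, read 8.58, 8.36 and 8.28 in WT, 8.02, 7.94 and 7.79 in Tyk2-/-, and 8.15, 8.02 and 7.71 in Tyk2K923E. The groups did not overlap, and the pooled difference of Irf9 was -0.47 (SE 0.06, limma adjusted p = 0.0394). Irf7, the factor that amplifies interferon production, did not pass, with -0.37 (SE 0.06, limma adjusted p = 0.0617), and was chosen after its values were seen, as was Stat2 at 0.01.

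Several antiviral effector genes fell. Rtp4, a transmembrane chaperone gene and common interferon target, read 6.72, 7.05 and 6.57 in WT, 5.77, 5.70 and 5.55 in Tyk2-/-, and 5.76, 5.29 and 5.10 in Tyk2K923E. Its pooled difference was -1.25 (SE 0.12, limma adjusted p = 0.0151). Mx1, a dynamin-like GTPase that blocks influenza viruses, read 5.66, 5.99 and 5.91 in WT, 5.34, 5.09 and 5.51 in Tyk2-/-, and 4.71, 4.91 and 5.08 in Tyk2K923E. No mutant array of either gene reached a WT array, and for Mx1 the Tyk2K923E arrays were the lowest of all 9. The pooled difference of Mx1 was -0.75 (SE 0.10, limma adjusted p = 0.0414). Trim30d, whose promoter is shown above, read 6.24, 5.98 and 5.84 in WT, 5.49, 5.16 and 4.83 in Tyk2-/-, and 5.20, 5.46 and 4.82 in Tyk2K923E. It belongs to a cluster of similar TRIM genes, and its pooled difference was -0.86 (SE 0.10, limma adjusted p = 0.0311). Lgals3bp, a secreted glycoprotein gene, was well above the array medians and fell by less, with 10.21, 10.46 and 10.44 in WT, 9.78, 9.99 and 10.19 in Tyk2-/-, and 9.64, 9.84 and 9.74 in Tyk2K923E. The pooled difference of Lgals3bp was -0.50 (SE 0.06, limma adjusted p = 0.0414), and a second probe set of the gene differed by -0.52.

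The DNA sensor and Schlafen families each gave 1 call. Ifi214, of the PYHIN family of interferon-activated nuclear proteins, read 5.56, 6.05 and 5.80 in WT, 4.04, 4.82 and 4.82 in Tyk2-/-, and 4.61, 4.73 and 4.62 in Tyk2K923E. It reached the array median on the 3 WT arrays and on no mutant array, and its pooled difference was -1.20 (SE 0.12, limma adjusted p = 0.0194). Slfn2, a Schlafen gene that keeps lymphocytes quiescent, read 9.69, 9.41 and 9.25 in WT, 9.16, 8.58 and 8.69 in Tyk2-/-, and 9.01, 8.77 and 8.72 in Tyk2K923E. All mutant arrays of Slfn2 were below the lowest WT array, with a pooled difference of -0.63 (SE 0.07, limma adjusted p = 0.025). Of the tested genes on either side of Ifi214, Ifi209 differed by -0.63 (limma adjusted p = 0.0616) and Aim2 by -0.034. On either side of Slfn2, Slfn1 differed by -0.48 (limma adjusted p = 0.141) and Slfn10-ps by 0.17. Ifi214, Trim30d and Slfn2 have similar paralogues, and how far their probes separate them was not tested.

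Ifi214, Mx1 and Trim30d would not have been tested without their WT arrays, since at most 1 of the 6 mutant arrays reached the array median, and Ckap4 not without its Tyk2-/- arrays. The WT arrays of Ckap4 and Pla2g4a lay below the median too, and only 1 WT array of Cfap300 reached it. Cfap300 and Pla2g4a would not have been tested without their mutant arrays. RMA values flatten near the background, so the fold changes of these genes may understate the difference. Selection by the filter and the threshold may overstate it, and neither was tested. No background level is in the values used here.

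**Figure D2:**
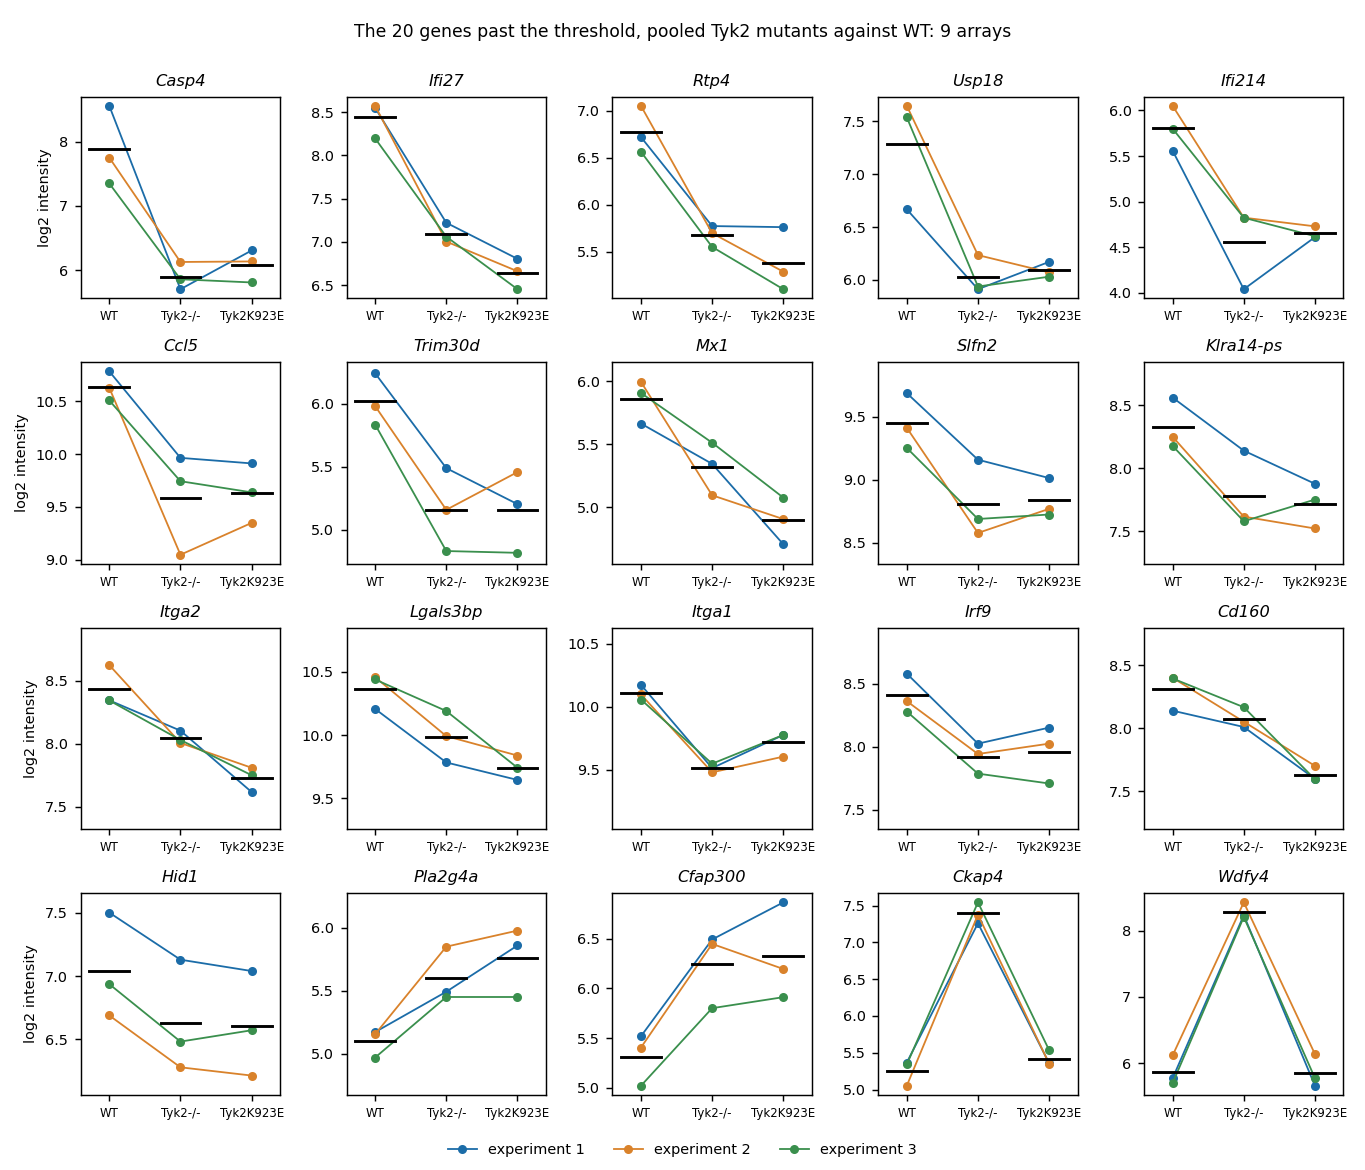
Each panel is 1 of the 20 genes past the threshold, with log2 intensity on the y axis (each panel has its own range, at least 1.6 units) and genotype on the x axis. Coloured points joined by lines are the arrays of 1 experiment and black bars the means of 3; in 18 panels every mutant point lies on the same side of the WT point of its experiment.

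The list of type I interferon-stimulated genes was lower in sign almost throughout. Of 62 listed genes 57 had a probe set and 48 were tested; 7 of the 48 fell and 0 rose, and 46 had a negative difference, against 47.9% of all genes tested. At an unadjusted p under 0.05, 27 were lower (56.2%, against 4.85% of all genes) and 0 higher. In 26 of them all 6 differences were negative (5.08% of all genes) and in 0 positive (5.72% of all genes), and in 15 the mutants lay wholly below WT (1.1% of all genes). The median difference of the list was -0.21, and it was -0.21, -0.23 and -0.22 in experiments 1, 2 and 3. Without the filter on low values, 55 of the 57 had a negative difference (10514 of all 22180 genes). Examples that did not pass, chosen after their values were seen, were Oasl1 at -0.71 (limma adjusted p = 0.117), Zbp1 at -0.36 and Isg15 at -0.31.

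Genes listed as inducible by interferon-gamma were also lower in sign, with no call, and what drives them in these cultures was not tested. In the list of GTPases and antigen presentation genes that interferon-gamma induces, 0 of 30 passed in limma, 28 had a negative difference (47.9% of all genes) and 13 were lower at an unadjusted p under 0.05 (43.3%, against 4.85% of all genes). The median was -0.19. Gbp3, a guanylate-binding GTPase, differed by -0.28 (SE 0.05, limma adjusted p = 0.122) and H2-K1, a class I antigen-presenting molecule, by -0.29 (SE 0.06, limma adjusted p = 0.14). The 4 tested PYHIN genes all had a negative difference (47.9% of all genes), with a median of -0.47. So had 4 of 5 Schlafen genes, with a median of -0.48.

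The receptors and kinases upstream gave no call. Of 28 cytokine receptor, Janus kinase and STAT genes, 0 passed in limma, 6 were lower (21.4%, against 4.85% of all genes) and 1 higher (3.57%, against 4.65%) at an unadjusted p under 0.05, and the median was -0.10. Stat4, which relays IL-12 signals, differed by -0.33 (SE 0.08, limma adjusted p = 0.218) and Il10rb, the shared receptor chain of the IL-10 family, by -0.30 (SE 0.07, limma adjusted p = 0.197); for both, all mutant arrays were below all WT arrays. Il2ra, the high-affinity IL-2 receptor chain, differed by 0.31 (SE 0.08, limma adjusted p = 0.25). Of the chains to which TYK2 binds, Il10rb is given above. Ifnar1 and Il12rb1, chosen after their values were seen, had smaller differences, at -0.12 (SE 0.06) and -0.04 (SE 0.07). The 13 SOCS and other feedback inhibitor genes had a median of -0.04 and gave 0 calls in limma, nor was any unadjusted p under 0.05 (0 of 13).

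Casp4, known in mice as caspase-11, senses cytosolic lipopolysaccharide and is inducible by interferons. It read 8.56, 7.75 and 7.35 in WT, 5.70, 6.13 and 5.86 in Tyk2-/-, and 6.31, 6.14 and 5.81 in Tyk2K923E. The mutant arrays lay closer together than the WT arrays, of which that of experiment 1 was the highest, and the groups did not overlap. The pooled difference of Casp4 was -1.90 (SE 0.19, limma adjusted p = 0.0203), and by experiment it was -2.55, -1.62 and -1.52. Casp1, its neighbour among tested genes and the caspase that matures IL-1 beta, differed by -0.65 (SE 0.12, limma adjusted p = 0.117). Of 7 tested inflammatory caspase and inflammasome genes, 1 fell and the median was -0.07.

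Casp4 and Cfap300 lie on chromosome 9, as does Tyk2. In the order of the 690 tested genes of chromosome 9 in the RefSeq table, 46 lie between Casp4 and Tyk2 and 38 between Cfap300 and Tyk2. Casp4, Cfap300 and Tyk2 were numbers 7, 15 and 54 in that order, so both calls lie on the same side of Tyk2. The called share was 0.29% on chromosome 9 and 0.159% over all genes, and it was higher on chromosomes 16 (0.536%), 14 (0.457%), 13 (0.435%), 11 (0.381%) and 6 (0.328%). A share over a whole chromosome says nothing about nearness to Tyk2, and whether position near the altered gene played a part was not tested.

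Among secreted factors, Ccl5 fell. This chemokine, also called RANTES, attracts T cells and NK cells. It read 10.78, 10.63 and 10.51 in WT, 9.96, 9.05 and 9.74 in Tyk2-/-, and 9.91, 9.35 and 9.64 in Tyk2K923E. Both mutants of experiment 2 were the lowest, and the groups did not overlap. The pooled difference of Ccl5 was -1.03 (SE 0.12, limma adjusted p = 0.0353), 2.04-fold lower. Of 16 cytokine and chemokine genes made by NK cells, 1 fell, 10 had a negative difference (47.9% of all genes) and the median was -0.13. Ccl3 differed by -0.67 (SE 0.15, limma adjusted p = 0.191), and Ifng, chosen after its values were seen, by -0.24 (SE 0.07, limma adjusted p = 0.356).

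Integrin genes of adjacent position fell together. Itga2 encodes CD49b, the antigen that DX5 beads select on, and Itga1 encodes CD49a, a collagen receptor chain of tissue-resident NK cells; they are neighbours on chromosome 13 among tested genes. Itga2 read 8.34, 8.62 and 8.34 in WT, 8.10, 8.01 and 8.03 in Tyk2-/-, and 7.62, 7.81 and 7.75 in Tyk2K923E. Itga1 read 10.18, 10.10 and 10.06 in WT, 9.51, 9.48 and 9.55 in Tyk2-/-, and 9.78, 9.61 and 9.78 in Tyk2K923E. The order of the mutants differed: Tyk2K923E was the lower for Itga2 and Tyk2-/- for Itga1. The pooled difference was -0.55 for Itga2 (SE 0.07, limma adjusted p = 0.0447) and -0.49 for Itga1 (SE 0.06, limma adjusted p = 0.0267). Of 17 integrin and adhesion genes 2 fell, and the median was -0.05. Itgam, which encodes CD11b and marks mature NK cells, differed by -0.95 (SE 0.14, limma adjusted p = 0.0599), and Itgax, which encodes CD11c, by -0.78 (SE 0.15, limma adjusted p = 0.117). Itgb1, the beta chain that pairs with both CD49 chains, was chosen after its values were seen and differed by -0.03.

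NK cell receptor genes were mostly lower in sign, with few past the threshold. Cd160, an activating receptor gene, read 8.14, 8.40 and 8.39 in WT, 8.01, 8.05 and 8.17 in Tyk2-/-, and 7.60, 7.70 and 7.59 in Tyk2K923E. Only Tyk2K923E lay wholly below WT, since the Tyk2-/- array of experiment 3 was above the WT array of experiment 1. The pooled difference of Cd160 was -0.46 (SE 0.06, limma adjusted p = 0.0499). Klra14-ps, a pseudogene in the Ly49 cluster, read 8.56, 8.25 and 8.18 in WT, 8.14, 7.62 and 7.58 in Tyk2-/-, and 7.88, 7.52 and 7.75 in Tyk2K923E. The mutants were all below WT, with a pooled difference of -0.58 (SE 0.08, limma adjusted p = 0.0447). Of 5 tested Ly49 genes 1 fell, 4 had a negative difference (47.9% of all genes) and the median was -0.51. Ly49 genes are near-identical in places, so which transcripts the probes report is uncertain. Klra9 differed by -0.69 (SE 0.12, limma adjusted p = 0.0847) and Klra6 by -0.51 (SE 0.13, limma adjusted p = 0.25), whereas Klra2, chosen after its values were seen, differed by 0.27.

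The other lectin-like receptors of this gene region gave 0 calls of 15 in limma, but 14 had a negative difference (47.9% of all genes) and 11 were lower at an unadjusted p under 0.05 (73.3%, against 4.85% of all genes), with a median of -0.29. Klrk1, which encodes the activating receptor NKG2D, differed by -0.40 (SE 0.06, limma adjusted p = 0.0761), and all its mutant arrays were below WT. Klri2, a lectin-like receptor chain, differed by -0.59 (SE 0.10, limma adjusted p = 0.0796), and Klrd1, which encodes CD94, by -0.35 (SE 0.06, limma adjusted p = 0.0842). Of 24 other activating receptor and adaptor genes 1 fell, with a median of -0.08; Cd7, an immunoglobulin-like surface receptor, differed by -0.89 (SE 0.13, limma adjusted p = 0.0599) and Fcgr3, the antibody receptor CD16, by -0.39 (SE 0.06, limma adjusted p = 0.0651). Among 13 chemokine and sphingosine receptor genes 0 passed in limma, and the median was -0.02. At an unadjusted p under 0.05, 4 of the 13 were lower (4.85% of all genes) and 0 higher (4.65% of all genes). Cxcr6, a homing receptor of liver NK cells, differed by -0.67 (SE 0.10, limma adjusted p = 0.059), with all mutant arrays below WT.

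The killing machinery was evenly split in sign only. Of 29 cytotoxic granule and death ligand genes, 15 had a negative and 14 a positive difference, and 0 passed in limma. At an unadjusted p under 0.05, 6 of the 29 were lower (4.85% of all genes) and 2 higher (4.65% of all genes). Granzyme B (Gzmb) differed by 0.03 (SE 0.05) and perforin (Prf1) by 0.14 (SE 0.05), both chosen after their values were seen. Tnfsf10, which encodes the death ligand TRAIL, differed by -0.38 (SE 0.10, limma adjusted p = 0.25). Of 28 NK lineage transcription factor genes 0 passed in limma, 4 were lower at an unadjusted p under 0.05 (4.85% of all genes), and the median was -0.05. Tbx21, which encodes T-bet, differed by -0.15 (SE 0.05, limma adjusted p = 0.453).

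Markers of NK cells and of other cell types were read on the same arrays. All 14 NK cell markers were tested, with 1 fall (Itga2) and a median of -0.09. Besides Itga2, at least Klrk1 (-0.40), Klrd1 (-0.35) and Tbx21 (-0.15) were lower at an unadjusted p under 0.05 (4.85% of all genes). Gzmb and Prf1, given above, were higher in sign. Of 17 T cell markers 14 were tested, and Cd4 and Cd40lg did not pass the filter. All 14 had a negative difference (47.9% of all genes) and 0 passed in limma. At an unadjusted p under 0.05, 5 of the 14 were lower (4.85% of all genes), and the median was -0.19. Their mean level ranged from 8.11 to 8.49 on WT arrays and from 7.83 to 8.34 on mutant arrays, and Cd8a differed by -0.62 (SE 0.18, limma adjusted p = 0.325). In experiments 1, 2 and 3 the median of the T cell markers was -0.35, 0.00036 and -0.27, that of the Ly49 genes -0.37, -0.68 and -0.51, and that of the other lectin-like receptors -0.38, -0.34 and -0.26. In Tyk2-/- and Tyk2K923E the T cell markers had medians of -0.10 and -0.34.

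Basophils also carry the DX5 antigen. Of their 12 markers and those of mast cells, 3 were tested; Fcer1a, Ms4a2, Gata2, Prss34 and the other 5 did not pass the filter. The 3 had a median of 0.44, with mean levels of 8.16 to 8.61 on WT arrays and 8.36 to 9.22 on mutant arrays. Mcpt8, a basophil protease gene, differed by 0.63 (SE 0.10, limma adjusted p = 0.0677), Cpa3 by 0.44 and Kit by 0.28. Their median was 0.21, 0.77 and 0.20 in experiments 1, 2 and 3, so it was highest in experiment 2. Mcpt8 differed from WT by 0.49 in Tyk2-/- and 0.77 in Tyk2K923E, and Cpa3 by -0.02 and 0.91. Few markers of other types passed the filter: 6 of 15 for monocytes and macrophages, 7 of 13 for dendritic cells, 3 of 13 for neutrophils, 2 of 11 for B cells, 2 of 11 for red cells and platelets, and 5 of 12 for stroma and endothelium. Their medians were -0.10, -0.05, -0.22, -0.13, 0.07 and 0.03, and 0 of these genes passed in limma. At an unadjusted p under 0.05, 4 of them were lower (4.85% of all genes) and 2 higher (4.65% of all genes). The part of other cells in the receptor results was not tested.

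**Figure D3:**
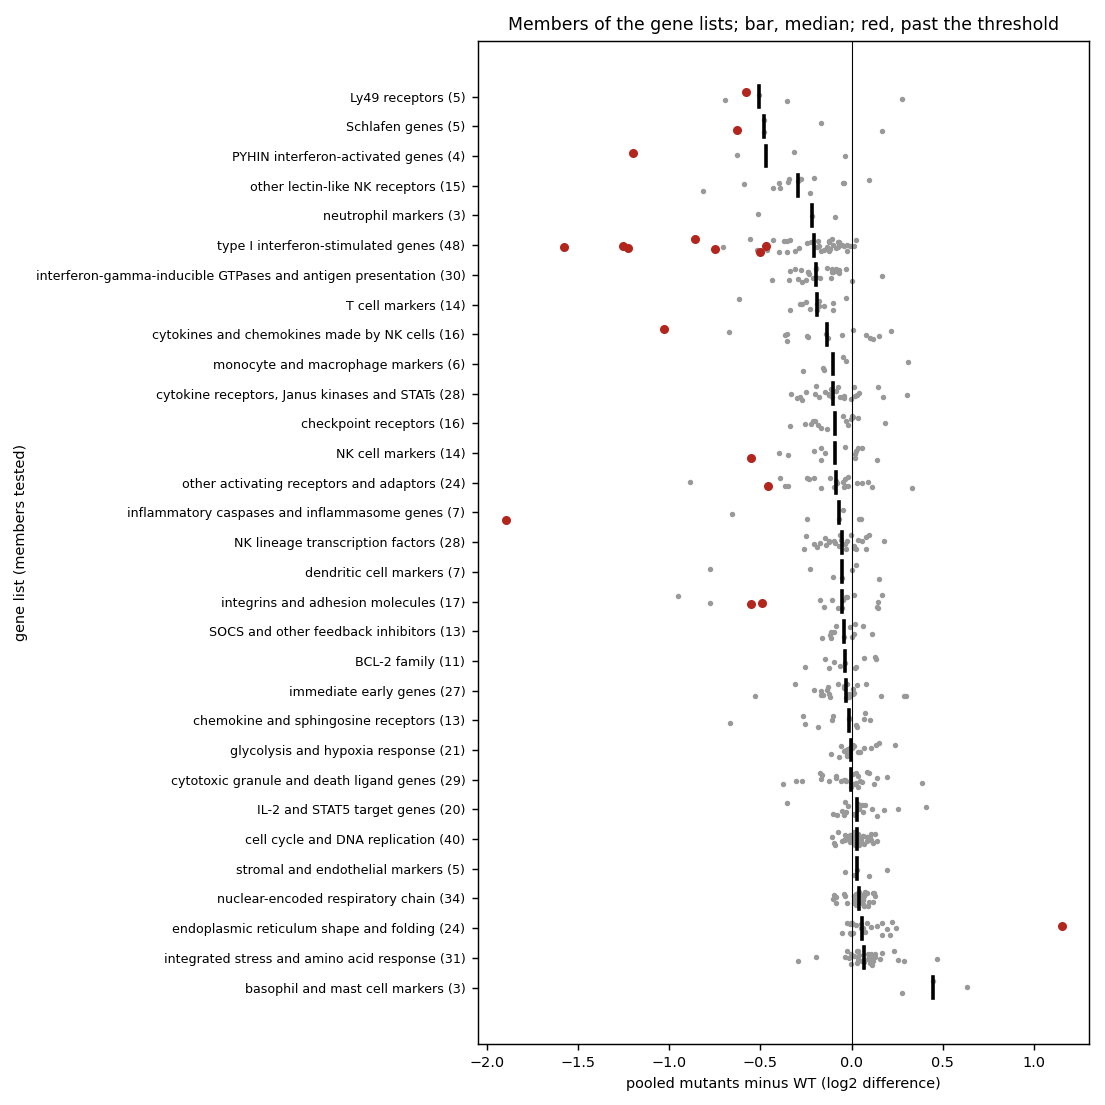
Each row is a gene list with at least 3 members tested (number in brackets); points are members, black bars list medians, red points the genes past the threshold, and the x axis is the pooled log2 difference, mutants minus WT. The Ly49, Schlafen, PYHIN, lectin-like receptor, neutrophil marker and type I interferon lists have medians between -0.51 and -0.21, while the metabolic and cell cycle lists lie within 0.04 of 0.

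Of the 33 lists, 25 had a median below 0. Of those not yet described, 1 held a call, Ckap4 among the endoplasmic reticulum genes. The 16 checkpoint receptor genes had a median of -0.09, the 27 immediate early genes -0.03, and the 11 BCL-2 family genes -0.04. Genes of growth were close to 0: 40 cell cycle and DNA replication genes had a median of 0.03, 34 nuclear-encoded respiratory chain genes 0.04, 21 glycolysis and hypoxia genes -0.01, and 20 IL-2 and STAT5 target genes 0.03. The 40 cell cycle genes gave 0 calls in limma and 0 unadjusted p-values under 0.05, though their medians were 0.15 in Tyk2-/- and -0.09 in Tyk2K923E. The 31 integrated stress and amino acid response genes had a median of 0.07 and 24 positive differences (6552 of all 12579 genes). Mthfd2, a mitochondrial folate enzyme, differed by 0.23 (SE 0.06, limma adjusted p = 0.241). The 24 endoplasmic reticulum genes had a median of 0.06 and 17 positive differences (6552 of all 12579 genes). At an unadjusted p under 0.05, 8 were higher (33.3%, against 4.65% of all genes). Among them Pdia6, a disulphide isomerase, differed by 0.22 (SE 0.05, limma adjusted p = 0.218).

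The 4 rises were of unlike kinds. Cfap300, a cilium assembly gene, read 5.52, 5.40 and 5.02 in WT, 6.49, 6.45 and 5.80 in Tyk2-/-, and 6.86, 6.19 and 5.91 in Tyk2K923E. Pla2g4a, the cytosolic phospholipase that releases arachidonic acid, read 5.17, 5.15 and 4.97 in WT, 5.49, 5.85 and 5.45 in Tyk2-/-, and 5.86, 5.98 and 5.45 in Tyk2K923E. In these genes both mutants were wholly above WT. The pooled difference was 0.97 for Cfap300 (SE 0.10, limma adjusted p = 0.0237) and 0.58 for Pla2g4a (SE 0.08, limma adjusted p = 0.0499).

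Wdfy4 and Ckap4 passed mainly through Tyk2-/-. Wdfy4, needed for cross-presentation by dendritic cells, read 8.23, 8.43 and 8.21 in Tyk2-/-, against 5.77, 6.12 and 5.70 in WT and 5.66, 6.14 and 5.77 in Tyk2K923E. Ckap4, which encodes a membrane protein that shapes endoplasmic reticulum sheets, read 7.26, 7.38 and 7.54 in Tyk2-/-, against 5.37, 5.05 and 5.34 in WT and 5.36, 5.35 and 5.54 in Tyk2K923E. The Tyk2K923E arrays lay in or next to the WT range in both genes, and the Tyk2-/- arrays were far above. The pooled difference was 1.21 for Wdfy4 (SE 0.06, limma adjusted p = 2.84e-04) and 1.15 for Ckap4 (SE 0.07, limma adjusted p = 0.00112). These are the means of 2.43 in Tyk2-/- and -0.01 in Tyk2K923E for Wdfy4, and of 2.14 and 0.16 for Ckap4.

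Whether the mutants differed from each other was tested in the contrast Tyk2-/- minus Tyk2K923E, which uses no WT array. Over all genes 3 passed (0.0238%), and 1218 had an unadjusted p under 0.05 (9.68%). Of the 20 genes, 2 passed: Wdfy4, with 2.43 (95% interval 2.27 to 2.60, limma adjusted p = 7.01e-06), and Ckap4, with 1.98 (1.78 to 2.17, limma adjusted p = 7.43e-05). The gene outside the 20 was Mapk8, which encodes the stress kinase JNK1 and lies near Wdfy4 on chromosome 14, with 1 tested gene between them. Mapk8 differed by -1.16 between the mutants (-1.35 to -0.96, limma adjusted p = 0.0032), and by -1.11 in Tyk2-/- and 0.05 in Tyk2K923E from WT. Its pooled difference of -0.53 did not pass (limma adjusted p = 0.0538).

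Of the other 18 genes, 6 differed between the mutants at an unadjusted p under 0.05 and 0 after adjustment in limma. In 5 of these 6 Tyk2K923E was the lower. The Tyk2-/- minus Tyk2K923E difference was 0.46 for Ifi27 (95% interval 0.26 to 0.65), 0.44 for Cd160 (0.28 to 0.61), 0.42 for Mx1 (0.17 to 0.67), 0.32 for Itga2 (0.13 to 0.51) and 0.25 for Lgals3bp (0.08 to 0.42). Itga1 went the other way, at -0.21 (-0.35 to -0.06). For the remaining 12 the interval included 0, which does not show that the mutants were alike: it was -0.70 to 0.33 for Casp4, -0.50 to 0.38 for Usp18, -0.02 to 0.60 for Rtp4, -0.37 to 0.28 for Ccl5, -0.26 to 0.26 for Trim30d and -0.21 to 0.16 for Slfn2.

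The differences of each mutant from WT share the WT arrays and are given side by side only; 11 of the 12579 genes passed in limma in Tyk2-/- against WT (0.0874%) and 11 in Tyk2K923E against WT (0.0874%). Casp4 differed by -1.99 in Tyk2-/- and -1.80 in Tyk2K923E. Ifi27 differed by -1.35 and -1.80, Usp18 by -1.26 and -1.19, and Ccl5 by -1.05 and -1.01 in the same order. Cd160, at -0.24 and -0.68, and Mx1, at -0.54 and -0.96, lay further apart, as did Ifi27. Hid1, a Golgi-associated protein of dense-core vesicle formation, had nearly equal differences of -0.41 and -0.44. It read 7.50, 6.69 and 6.94 in WT, 7.13, 6.28 and 6.48 in Tyk2-/-, and 7.04, 6.21 and 6.57 in Tyk2K923E. The mutants of Hid1 overlap WT across experiments, since all arrays of experiment 1 were high, but within each experiment the difference was -0.42, -0.44 and -0.41 (pooled SE 0.05, limma adjusted p = 0.0394).

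**Figure D4:**
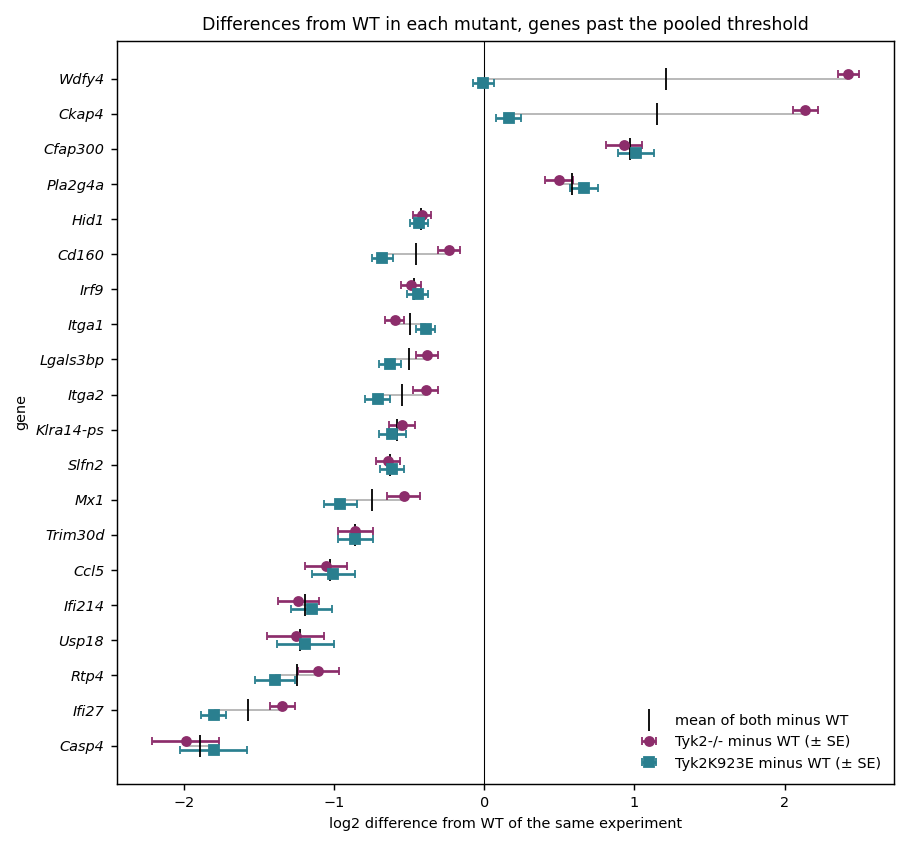
For each of the 20 genes (y axis), circles and squares give the log2 difference from WT in Tyk2-/- and Tyk2K923E with the fit's SE as bars, and vertical ticks their mean, the pooled difference. For Wdfy4 and Ckap4 the circles lie at 2.43 and 2.14 and the squares at -0.01 and 0.16; in the other 18 genes both marks are on the same side of 0.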

How the data were processed

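The values were used as deposited: log2 intensities that the authors made with RMA in Partek 6.6, per the submitters' processing notes. The genome build was not given in the sources used here. Of 41345 probe sets, 23521 had 1 gene symbol, 1814 several, and 16010 were not listed; the brightest one past the filter stood for its gene. Genes were fitted with limma 3.58.1 (R 4.3.3, statmod 1.5.0, lmFit and eBayes) over 9 arrays, with genotype means, the experiment as a block, 4 residual degrees of freedom and the contrast of the mean of both mutants with WT. Figures were drawn in Python 3.11.15 with matplotlib 3.10.9. The experiments pair the samples per the labels. Deviations from the genotype mean correlated at 0.383 to 0.787 between the arrays of an experiment (9 pairs) and at -0.71 to 0.559 between experiments. These ranges overlap. Subtracting the mean of 3 arrays also lowers the correlations between experiments by construction, so they do not test the pairing. The precision is limited by the 3 pairs, for which an exact two-sided sign-flip test has a smallest p of 0.25. The members, the 33 lists and the tests were chosen with earlier results of these data known. The text names Tyk2, the genes past the threshold, neighbours of some of them, and others marked as chosen after their values were seen. Of the 3 members of lowest p in each list only some are named, not always the lowest. The alternatives were the block (none or random), pair differences, the filter, centring, quantile normalisation, an intensity trend, array weights, the mean over probe sets, and leaving out arrays or experiments.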

Additional observations from a re-analysis of the deposited data

Results flagged for a closer look

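A rule picked 102 genes: Tyk2, those past the threshold and the 3 of lowest p in each list. Of these, 6 had 1 mutant array far from the other 5 (gap over range above 0.625). Chance flags about 1 in 20 such groups. Tyk2 was highest, at 9.55, on the Tyk2-/- array of experiment 1, and Hk2, a hexokinase gene, was highest there too, at 9.52. Ifi214 was lowest on the same array, at 4.04. Klrk1, at 9.67, and Runx1, a lineage transcription factor gene, at 7.80, were lowest on the Tyk2K923E array of experiment 1. Mndal, a PYHIN gene, was lowest on the Tyk2K923E array of experiment 3, at 7.51.

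The mutants differed from each other in Wdfy4 (2.43, limma adjusted p = 7.01e-06), Ckap4 (1.98, limma adjusted p = 7.43e-05) and Mapk8 (-1.16, limma adjusted p = 0.0032).

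Probe sets without a single gene name lay outside the comparison. Of 8283 that passed the filter, 0 were lower and 2 higher in limma in the pooled mutants (0.0241%), with 435 at an unadjusted p under 0.05. Probe set 17549062 read 11.73, 11.31 and 11.37 in Tyk2-/-, 5.90, 5.58 and 5.91 in WT, and 5.41, 5.72 and 5.59 in Tyk2K923E. Its pooled difference of 2.72 (limma adjusted p = 0.0025) was again carried by Tyk2-/-. Probe set 17549150 read 12.54, 12.13 and 12.14 in Tyk2-/-, 6.33, 6.09 and 6.29 in WT, and 6.00, 6.15 and 6.18 in Tyk2K923E, with a pooled difference of 2.95 (limma adjusted p = 0.00107). The mutants differed by 5.90 and 6.16 in these probe sets. The annotation used here names no gene for either.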

How the results depend on the processing

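The fit with the experiment block gave 16 falls, 4 rises and 3 genes different between the mutants. With no replicate block, 1 fell and 2 rose, and the same with no filter on low values (22180 genes). On the 3 pair differences, 2 fell and 3 rose. More genes passed with the 70th percentile filter (34 fell, 9 rose), an intensity trend (40 and 12) and array weights (50 and 19). The other alternatives that keep all arrays gave 16 to 19 falls and 4 to 6 rises. Leaving out 1 array or experiment gave 1 to 9 falls, 0 to 3 rises and 2 to 6 genes different between the mutants. No call changed direction. Named genes that did not pass changed sign on leaving out 1 array or experiment, with ranges of -0.012 to 0.37 for Egln3, -0.080 to 0.17 for Cd79b, -0.054 to 0.077 for Gp9, -0.028 to 0.27 for Kdr and -0.13 to 0.047 for Col1a1. Array number and low signal limit these results.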
